A study of Mus musculus with 6 samples.

Results

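The S100 genes encode small calcium-binding proteins, and 10 of them were examined in flat cultures of mouse airway epithelial organoids (2D-MAOs) kept with or without TGF-β1: S100a1, S100a4, S100a6, S100a8, S100a9, S100a10, S100a11, S100a13, S100a14 and S100a16. They were taken by name from 18 S100 genes to which a transcript probe of the array pointed through its RefSeq accession. The rule itself uses no measured value, but the 10 genes were chosen with earlier results of these data known. They were 10 of the 22910 genes named on the array. Of these, 8 were well above background on all 6 arrays and were tested among 14345 genes, and S100a8 and S100a9 were well above background on no array. None of the 8 changed past an adjusted p of 0.05, which 2.04% of all genes tested did. The 8 fitted changes all lay below 0, from -0.89 to -0.07 on the log2 scale, as did those of 54.2% of all genes tested. Of 3 other S100 genes tested, outside the chosen 10, 1 was higher and 2 were lower.

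S100 proteins belong to the EF-hand family, whose members hold calcium in a loop between a pair of helices. Most form dimers that open a binding face when calcium rises and then grip partners such as annexins and non-muscle myosin. Some are also secreted and act on receptors at the surface of other cells, and S100a8 with S100a9 forms calprotectin, an antimicrobial complex abundant in neutrophils. Most S100 genes lie near genes of the cornified envelope, in a stretch of the genome known as the epidermal differentiation complex, and many of them are active in surface epithelia.

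The 2D-MAOs came from lung airway epithelial cells of C57BL/6 mice, grown as organoids and then plated flat in 6-well plates. Both groups, 3 cultures each, were held from day 3 in the same medium lacking noggin and A83-01, an inhibitor of the TGF-β type I receptor, to which TGF-β1 was added for the treated group. RNA was taken from all cultures on day 7. The paragraph on the arrays in the methods names no concentration, although the methods name one for this treatment in other assays. The labels describe the cultures of a group as biological replicates, without saying whether they came from separate animals. Total RNA was measured on 1 single-colour Agilent array per culture, so that the number of arrays limits the precision. Each value below is a log2 signal after quantile normalization, each change is TGF-β1 minus control, and each adjusted p is a Benjamini-Hochberg value over all 14345 genes from limma, which fits every gene with a shared estimate of spread. Because each probe has a brightness of its own, no gene's level is set against that of another gene. In RNA of whole cultures, fewer cells of one type and less RNA per cell cannot be told apart.

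On each array 55.0% to 59.0% of the probes were well above background. The 6 arrays shared 1 slide and 1 scan time, with replicate 3 of both groups in slide row 2 and the others in slide row 1. TGF-β1 replicate 3 stood apart from the rest of its group, at distances of 61.1 and 62.3 (Euclidean, over the log2 signals of the genes tested) where the other TGF-β1 arrays were 32.3 from each other. All 13 markers of airway epithelium were well above background on every array, 8 with fitted changes above 0 and 5 below. Foxj1, which drives ciliated cells, rose by 1.47 (adjusted p = 0.0024) and was the only call. Other large changes were those of Scgb1a1, the club cell secretoglobin (-2.27, adjusted p = 0.158), the basal cell keratin Krt5 (1.37, adjusted p = 0.179) and the epithelial adhesion gene Epcam (0.82, adjusted p = 0.115). Of the 15 markers of neutrophils and myeloid cells on the array, 6 were tested and 9 were never well above background, including Ptprc, Mpo, Ngp, Adgre1 and Tyrobp. The summed linear signal of the myeloid list was 58000 to 71100 in controls and 78500 to 95700 after TGF-β1. Most of it was the signal of Csf3r (mean log2 15.61 and 16.13). By their fitted changes 4 of the 6 were higher and 2 lower. The higher ones were Cd68 (0.90, adjusted p = 0.147), Csf3r (0.52, adjusted p = 0.141), Itgam (0.43, adjusted p = 0.134) and Csf1r (0.01, adjusted p = 0.984). The lower ones were Itgb2 (-0.61, adjusted p = 0.113) and Elane (-0.56, adjusted p = 0.222). Of the 12 fibroblast markers, 6 were never well above background, among them Col3a1, Pdgfrb and Lum. All 6 tested had fitted changes above 0, with a median of 1.53, or 1.13 with 2 genes at their lower bounds. Among them were Thy1 (2.47, adjusted p = 0.177), Dcn (1.00, adjusted p = 0.273) and Acta2 (0.02, adjusted p = 0.96). The list summed to 10900 to 17700 in controls and 12700 to 19100 after TGF-β1, mostly the signal of Acta2 (mean log2 13.69 and 13.71). Col1a1 was at least 2.59-fold and Col1a2 at least 2.38-fold higher than control levels not well above background. Their adjusted p (0.0091 and 0.0162) came from the signals without these bounds. Of 9 endothelial markers 2 were tested, and neither passed the test. The part of these differences in the S100 values was not tested.

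The DNA around 3 start sites is shown, that of S100a13 because it is shared with S100a1, that of S100a4 because this gene had the lowest adjusted p of the set, and that of S100a11 for a repeated motif. Promoter windows of the RefSeq annotation of GRCm38.p6 ran from 250 bases before the start site to 50 after it. They numbered 9 for 8 of the 10 genes, with an additional window for S100a16. S100a1 and S100a13, which had the largest fitted decreases, start 105 bases apart on opposite strands of chromosome 3 and share 204 bases of their windows. The S100a13 window (chr3:90514185-90514484, plus strand) carries in capitals the 104 bases between both start sites. The S100a4 window (chr3:90603520-90603819, plus strand) carries in capitals a TATAAA at -31, and the S100a11 window (chr3:93520246-93520545, plus strand) carries TGAGTCA at -136 and -38, the letters of an AP-1 motif.
S100a13: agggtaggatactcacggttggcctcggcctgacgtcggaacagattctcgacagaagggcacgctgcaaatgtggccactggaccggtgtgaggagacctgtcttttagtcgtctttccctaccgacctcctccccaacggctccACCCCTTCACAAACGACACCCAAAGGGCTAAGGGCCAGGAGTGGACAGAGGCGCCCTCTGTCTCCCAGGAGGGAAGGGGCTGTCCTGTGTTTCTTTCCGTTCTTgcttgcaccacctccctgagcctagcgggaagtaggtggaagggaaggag
S100a4: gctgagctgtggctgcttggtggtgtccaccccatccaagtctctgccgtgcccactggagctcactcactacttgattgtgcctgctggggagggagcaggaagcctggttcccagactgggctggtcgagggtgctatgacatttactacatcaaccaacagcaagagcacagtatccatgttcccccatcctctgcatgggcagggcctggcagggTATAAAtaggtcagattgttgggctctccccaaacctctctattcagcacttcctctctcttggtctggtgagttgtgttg
S100a11: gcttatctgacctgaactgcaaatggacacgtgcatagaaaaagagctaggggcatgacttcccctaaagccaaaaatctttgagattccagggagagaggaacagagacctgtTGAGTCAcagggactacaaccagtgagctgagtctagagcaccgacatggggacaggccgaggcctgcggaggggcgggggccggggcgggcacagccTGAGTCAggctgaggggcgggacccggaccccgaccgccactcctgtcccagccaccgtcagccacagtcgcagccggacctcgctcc
A total of 5 motifs were searched on both strands, with no overlap removed between them. A gene is counted if any of its windows held the motif, while the shares are of single windows. The AP-1 letters TGANTCA were in the windows of 2 of the 8 genes (S100a11 and S100a16) and in 7.81% of 32851 windows of the annotation. The short SMAD motif CAGAC was in 4 of the 8 and 49.6% of all windows, and the palindrome GTCTAGAC was in 0 of the 8 and 0.213% of all. TATAAA was in 3 of the 8 (S100a4, S100a8 and S100a9) and 13.6% of all, and GGGCGG in 3 of the 8 and 35.7% of all. Such matches describe the letters of the windows and are not binding sites.

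S100a1, which is best known as a regulator of calcium handling and contraction in muscle, had the largest fitted decrease. Its log2 signal was 12.43, 12.66 and 11.31 in control replicates 1, 2 and 3, and 11.37, 11.69 and 10.66 in TGF-β1 replicates 1, 2 and 3. Replicate 3 was the lowest array of both groups, and the groups overlapped because control replicate 3 lay below TGF-β1 replicates 1 and 2. The change was -0.89 (SE 0.41, 95% interval -1.86 to 0.07), 1.86-fold lower, with an adjusted p of 0.252 from limma and an exact two-sided permutation p of 0.3. With 3 arrays per group that permutation test cannot go below 0.1. Within slide row 1, 2 arrays against 2, the change was -1.02, and within slide row 2, 1 against 1, it was -0.65.

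S100a13, which takes part in the release of Fgf1 and Il1a without a signal peptide, starts next to S100a1 on the opposite strand. Control replicates 1, 2 and 3 gave 12.80, 13.05 and 12.03, and the TGF-β1 replicates gave 11.88, 11.89 and 11.50. All treated arrays lay below all control arrays, although again replicate 3 was the lowest of each group. The change was -0.87 (SE 0.27, 95% interval -1.51 to -0.23, limma adjusted p = 0.15, exact permutation p = 0.1), 1.83-fold lower. It was -1.04 within slide row 1 and -0.53 within slide row 2. Both genes crossed the threshold when the slide row was taken as a block (limma adjusted p = 0.0451 for S100a1 and 0.048 for S100a13). In slide row 1 alone both were also more than 2-fold lower (limma adjusted p = 0.0198 and 0.0132). S100a13 alone crossed it when control replicate 3 was left out (change -1.17, limma adjusted p = 0.0421), and without TGF-β1 replicate 3 the changes were -0.60 for S100a1 and -0.74 for S100a13, with limma adjusted p of 0.324 and 0.134.

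**Figure D1:**
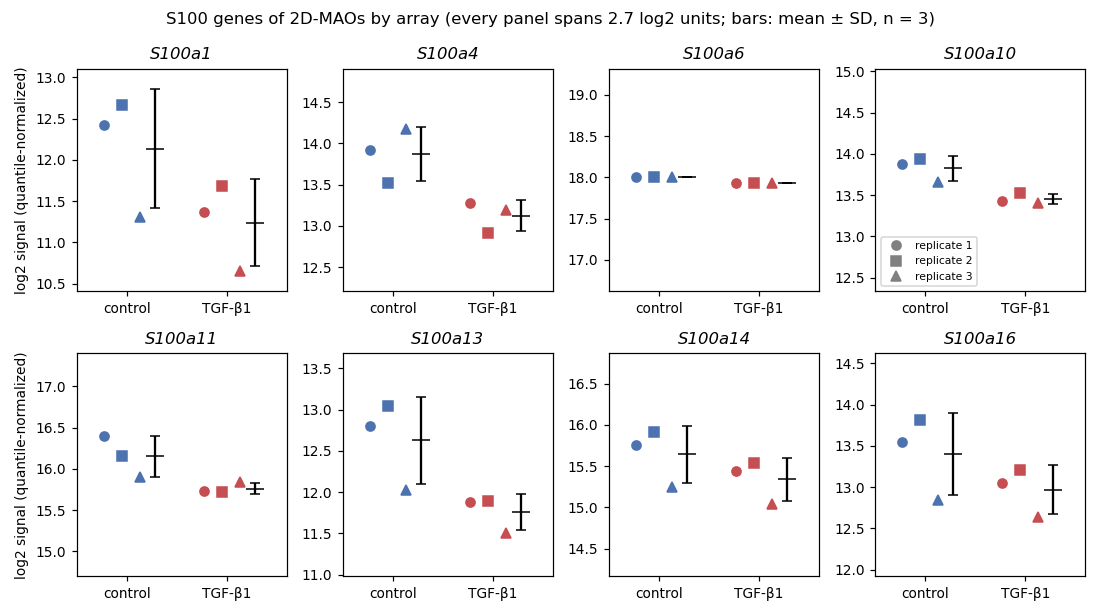
Log2 quantile-normalized signal of the 8 S100 genes tested, on every array (circles, replicate 1; squares, replicate 2; triangles, replicate 3), with the mean ± SD (n = 3) of control and TGF-β1 2D-MAOs beside the points. The vertical span is equal in all panels. The triangles are the lowest points of both groups for S100a1, S100a13, S100a14, S100a16 and S100a10, and S100a4 differs in that control replicate 3 is its highest array.

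S100a4, also called fibroblast-specific protein 1, binds non-muscle myosin and is widely used as a marker of fibroblasts and of epithelial-to-mesenchymal transition. It read 13.92, 13.52 and 14.18 in the control replicates and 13.27, 12.91 and 13.19 after TGF-β1. The groups did not overlap, and control replicate 3 was the highest array rather than the lowest. The change was -0.75 (SE 0.19, 95% interval -1.21 to -0.29), 1.68-fold lower. Its adjusted p of 0.107 was the lowest of the 8 genes in the limma fit, and its exact permutation p was 0.1. With arrays scaled to their 75th percentile in place of quantiles the change was -0.94 and passed the threshold (limma adjusted p = 0.0455). It was -0.63 within slide row 1 and -0.99 within slide row 2, and -0.78 without TGF-β1 replicate 3 (limma adjusted p = 0.0641).

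S100a10, the partner of annexin A2, and S100a11, a partner of annexin A1, stand side by side in a second S100 group on chromosome 3. S100a10 read 13.88, 13.94 and 13.65 in the control replicates and 13.43, 13.52 and 13.40 after TGF-β1. S100a11 read 16.40, 16.16 and 15.90 in controls and 15.73, 15.72 and 15.83 after TGF-β1. In both genes the groups did not overlap, for S100a11 by a gap of only 0.07 between control replicate 3 and TGF-β1 replicate 3. The change was -0.37 for S100a10 (SE 0.12, 95% interval -0.65 to -0.09, limma adjusted p = 0.152) and -0.39 for S100a11 (SE 0.15, 95% interval -0.74 to -0.04, limma adjusted p = 0.191). A second probe of S100a10 gave 12.29, 12.50 and 12.15 in controls and 11.76, 11.70 and 11.61 after TGF-β1, a change of -0.63 (SE 0.14). Over probes rather than genes its limma adjusted p was 0.0708, against 0.138 for the first probe. For S100a10 the change was -0.44 within slide row 1 and -0.25 within slide row 2, and for S100a11 it was -0.56 and -0.07. Without TGF-β1 replicate 3 the changes were -0.35 and -0.43.

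S100a14 and S100a16, which are found mainly in epithelia and lie next to S100a13, did not separate the groups. S100a14 read 15.76, 15.91 and 15.25 in the control replicates and 15.44, 15.53 and 15.04 after TGF-β1. S100a16 read 13.55, 13.81 and 12.85 in controls and 13.06, 13.21 and 12.64 after TGF-β1. In both genes the groups overlapped, since control replicate 3 was below TGF-β1 replicates 1 and 2. The changes were -0.30 for S100a14 (SE 0.21, limma adjusted p = 0.418) and -0.43 for S100a16 (SE 0.27, limma adjusted p = 0.369). The second probe of S100a16 changed by -0.51 (SE 0.27). Without TGF-β1 replicate 3 these changes were -0.15 for S100a14 and -0.27 for S100a16, within slide row 1 they were -0.35 and -0.55, and within slide row 2 they were -0.21 and -0.20.

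S100a6, or calcyclin, binds CacyBP, a partner in ubiquitin ligase complexes, and could not be measured for spread on the quantile scale. Its probe was the brightest of the array on all 3 control arrays and the next after the brightest on all 3 TGF-β1 arrays, and quantile normalization gives equal values to equal ranks. Its log2 signal was therefore 18.00 on each control array and 17.94 on each TGF-β1 array, and the SE of its change of -0.07 (0.09, limma adjusted p = 0.689) came from other genes alone. Before normalization its signals were 290989, 266743 and 267200 in the control replicates and 250520, 229970 and 255218 after TGF-β1, with all treated arrays below all control arrays. No transcript spot was saturated. With 75th percentile scaling the change was -0.23 (limma adjusted p = 0.276), and with no normalization between arrays, a setting added after the ranks were seen, it was -0.17 (limma adjusted p = 0.52).

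S100a8 and S100a9, the calprotectin pair, were not well above background on any of the 6 arrays. The S100a8 spot had a median brightness of 1.11 to 1.36 times that of its surroundings on control arrays and of 1.31 to 1.57 times on treated arrays. For S100a9 these ratios were 1.15 to 1.57 and 1.27 to 1.48. The normalized log2 signal of S100a8 was 2.22, 2.40 and 2.43 in controls and 2.71, 2.67 and 3.29 after TGF-β1, and that of S100a9 stayed between 1.70 and 1.74. No fold is given for either gene.

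**Figure D2:**
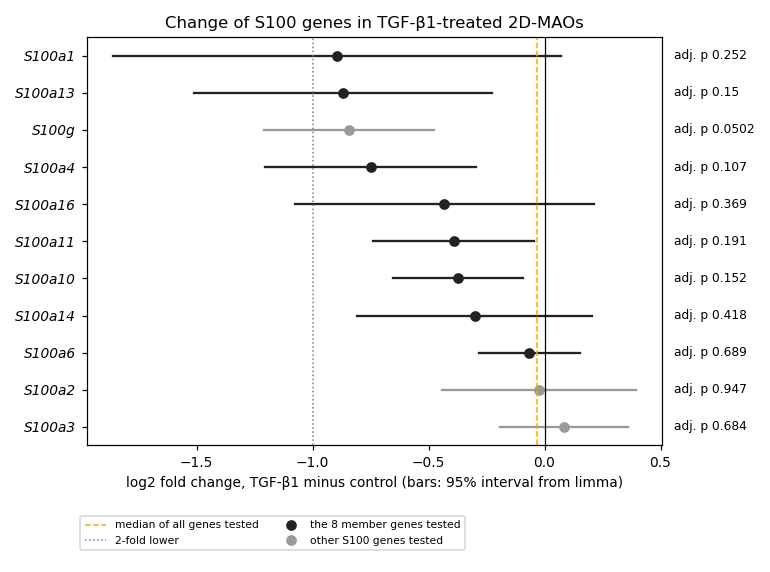
Log2 fold change (TGF-β1 minus control) of the 11 S100 genes tested, with its 95% interval from limma (n = 3 arrays per group) and the adjusted p over all genes. Dark points are the 8 genes of the set and grey points the other S100 genes, the solid line marks 0, the dashed line marks the median of all genes tested (-0.03) and the dotted line a 2-fold decrease. The intervals of S100a1, S100a6, S100a14, S100a16, S100a2 and S100a3 reach across 0.

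Read over the set, 0 of the 8 genes tested passed an adjusted p of 0.05 in the lower direction, where 0.404% of all genes did, and 0 in the higher direction, where 1.63% did, 2.04% of all genes in either direction. With a change of 2-fold or more as well the counts were 0 lower and 0 higher, where 0.188% and 1.19% of all genes passed. At an unadjusted p under 0.05 from limma 4 of the 8 were lower (S100a4, S100a10, S100a11 and S100a13), against 10.8% of all genes, and 0 were higher. On the same values the methods' t-test called 2 of them without adjustment, S100a4 and S100a10, where 7.99% of all genes were called lower, and 0 after adjustment, where 0% of all genes were. It could not be run on S100a6. In 5 of the 8 all treated arrays lay below all controls, which held for 13.5% of all genes, and 1 of these 5 was S100a6 with its fixed ranks. The median change was -0.41, beside -0.03 over all genes tested, of which 54.2% had a change below 0. All 8 changes were below 0 within slide row 1, where those of 54.4% of all genes were. They were also below 0 within slide row 2, for which the share of all genes was not computed. S100a6, with its fixed ranks, gave the same -0.07 in both rows. In slide row 1 alone 5 of the 8 passed the threshold (S100a1, S100a10, S100a11, S100a13 and S100a16), where 13% of all genes were called lower and 13.8% higher. With arrays weighted by how closely they followed the fit, 5 of the 8 passed (S100a1, S100a4, S100a10, S100a11 and S100a13), where 18% of all genes were called lower. Without TGF-β1 replicate 3 none of the 8 did, where 6.27% of all genes were called lower.

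**Figure D3:**
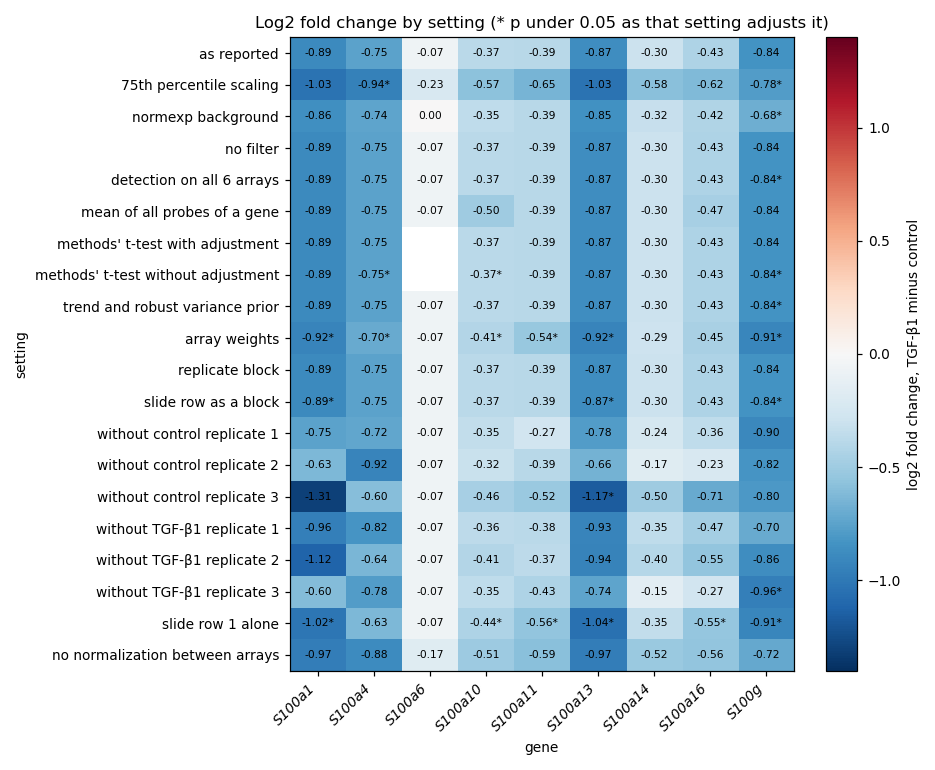
Log2 fold change (TGF-β1 minus control, colour and printed value) of the 8 S100 genes tested and of S100g under the reported setting and 19 alternatives, with an asterisk where p was under 0.05 as adjusted by that setting. The 2 empty cells are the methods' t-test of S100a6, which had no spread. The column of S100a1 runs from -1.31 without control replicate 3 to -0.60 without TGF-β1 replicate 3.

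The arrays also differed within groups in a way that several S100 genes shared. Replicate 3 was the lowest array of both groups in 5 of the 8 genes (S100a1, S100a10, S100a13, S100a14 and S100a16), which held for 12.5% of all genes tested. Against the mean of replicates 1 and 2, the log2 signal of S100a1 in replicate 3 differed by -1.23 in controls and by -0.87 after TGF-β1. For S100a16 these differences were -0.83 and -0.49, for S100a13 -0.89 and -0.38, and for S100a14 -0.58 and -0.44. Both arrays concerned lay in slide row 2, and row and replicate number cannot be told apart.

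In genome order the 4 genes with the largest such offsets, S100a1, S100a13, S100a14 and S100a16, follow each other at one end of the larger S100 cluster of chromosome 3, a fact noticed after their values were seen. The next genes along the cluster differed. S100a3 and S100a2 changed by 0.08 and -0.02, and replicate 3 was the lowest array of neither group in them. On the other side of S100a1, Chtop and Ilf2 changed by 0.01 and -0.01, and Snapin, a protein of vesicle transport, by -0.03 although its replicate 3 differed by -0.68 in controls and -0.38 after TGF-β1. Of the 11 genes of other families within the cluster or up to 6 places beside it, 7 were tested, 5 of them with changes below 0 and 2 above, and 0 passed the threshold. The range of these 7 was -0.56 for Lor to 0.78 for Slc27a3.

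**Figure D4:**
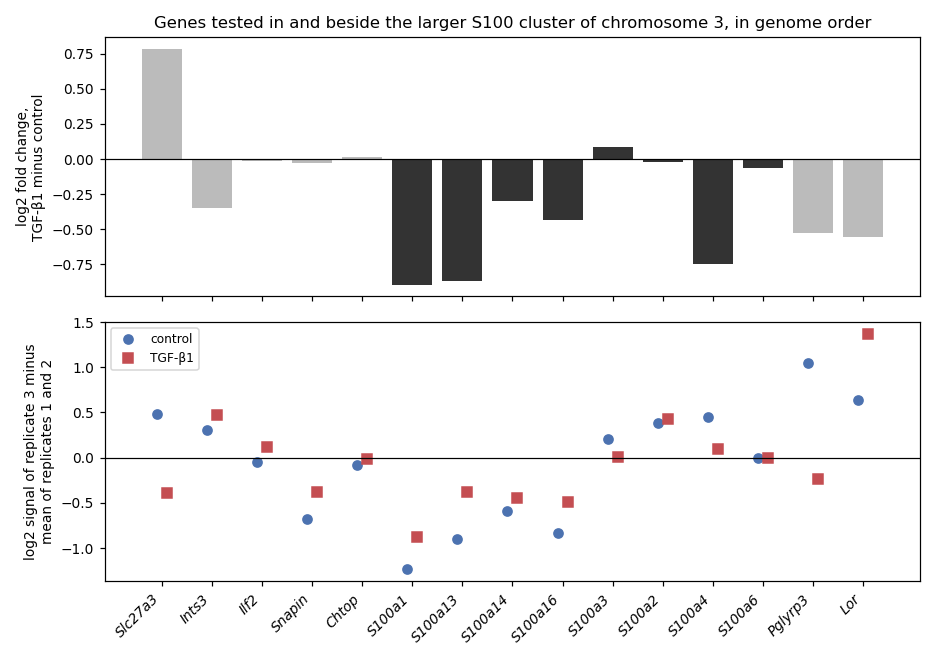
Genes tested in and beside the larger S100 cluster of chromosome 3, in genome order, with S100 genes as dark bars. The upper panel gives the log2 fold change (TGF-β1 minus control) and the lower panel the log2 signal of replicate 3 minus the mean of replicates 1 and 2 in each group. S100a1, S100a13, S100a14 and S100a16 lie below 0 in both panels and in both groups, while S100a2 and S100a3 lie at or above 0 in the lower panel.

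Over the 6 arrays the profiles of S100a14 and S100a16 were the closest pair within the set, with a root mean square difference of 0.11 on the log2 scale after centring each gene. S100a10 and S100a11 followed at 0.12, and S100a1 and S100a13 differed by 0.22. S100a1 and S100a4 were the farthest apart, at 0.71. Among all genes tested, those nearest to S100a1 were Bcas1 (0.14), Lrrc26 (0.17) and Pparg (0.20), and those nearest to S100a13 were Rwdd2a (0.10), Ankrd29 (0.11) and Cd36 (0.13), each as a description over 6 arrays.

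The array carried 8 other S100 genes with a RefSeq probe, of which 3 were tested and none passed the threshold. S100g, or calbindin-D9k, a carrier of calcium across absorptive epithelia, came closest. It read 8.59, 8.76 and 8.80 in the control replicates and 7.60, 7.92 and 8.11 after TGF-β1, with no overlap. The change was -0.84 (SE 0.15, 95% interval -1.21 to -0.47, limma adjusted p = 0.0502), and it passed the threshold under 8 of the 18 alternatives that adjust p, among them without TGF-β1 replicate 3 (change -0.96, limma adjusted p = 0.0143). S100a3 changed by 0.08 (limma adjusted p = 0.684), below 0 without control replicate 1, and S100a2 by -0.02 (limma adjusted p = 0.947), above 0 under 5 alternatives. S100a5, S100a7l2 and S100b were never well above background, S100a7a was on 1 array and S100z on 2. Of 6 fused-type genes on the array, long relatives that join an S100 domain to repeats of the epidermis, only Tchh, trichohyalin, was tested (change -0.79, limma adjusted p = 0.158).

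Partners and receptors of S100 proteins showed no call. Of 17 tested partners inside the cell 9 were higher and 8 lower by their fitted changes, 0 passed the threshold, and the median change was 0.03. At an unadjusted p under 0.05 from limma 3 were higher and 2 lower, where 11.4% and 10.8% of all genes were. The largest changes were those of Anxa11, an annexin (-0.65, limma adjusted p = 0.143), Myh9, the heavy chain of non-muscle myosin bound by S100a4 (0.57, limma adjusted p = 0.124), and Fgf1, the growth factor released with S100a13 (-0.51, limma adjusted p = 0.401). Of 9 receptors 5 were higher and 4 lower, 0 passed, and the median was 0.03. At an unadjusted p under 0.05 from limma 2 were higher and 2 lower, beside the same 11.4% and 10.8% of all genes. The scavenger receptor gene Cd36 changed by -1.01 (limma adjusted p = 0.0837), Ly96, the partner of Tlr4, by 0.53 (limma adjusted p = 0.0967), and Cd14 by -0.40 (limma adjusted p = 0.176). Taken as the mean of all its probes, Ly96 changed by 0.20 (limma adjusted p = 0.266). With TGF-β1 replicate 3 left out 5 partners and 1 receptor passed, where 9.08% of all genes were called higher and 6.27% lower. With control replicate 3 left out 0 partners and 1 receptor did, where 1.38% and 0.781% of all genes were.

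Other EF-hand genes, which share the calcium loop, held 2 calls, both higher. Of 24 tested 14 were higher and 10 lower by their fitted changes, with a median of 0.18, or 0.10 with 2 genes that were not well above background in controls taken at their lower bounds. Efhd1, a mitochondrial calcium sensor, rose from 4.43 ± 0.91 to 7.46 ± 0.57 (SD, n = 3, limma adjusted p = 0.0338) and was well above background on 2 of the 3 control arrays. With normexp background its change was 1.39 in place of 3.03. Nucb2, nucleobindin 2, rose from 12.34 ± 0.27 to 13.45 ± 0.10 (SD, n = 3, limma adjusted p = 0.0222). Rcn3, a reticulocalbin of the endoplasmic reticulum, was at least 1.33-fold higher (0.41 on the log2 scale) and did not pass (limma adjusted p = 0.0662). With normexp background its change was 0.32, below that bound. With TGF-β1 replicate 3 left out 9 of the 24 passed, where 9.08% of all genes were called higher and 6.27% lower. With control replicate 3 left out 3 did, where 1.38% and 0.781% of all genes were. With any other array left out 0 did, where 0.342% to 0.523% of all genes were called higher and 0.0488% to 0.0697% lower.

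Genes of squamous differentiation, which share the chromosome 3 neighbourhood with the S100 genes in part, held no call. Of 10 tested 9 were lower and 1 higher by their fitted changes, 0 passed, and the median was -0.38. At an unadjusted p under 0.05 from limma 1 was higher and 1 lower, where 11.4% and 10.8% of all genes were. The largest changes were those of Krt6a, a keratin of stressed epithelium (1.77, limma adjusted p = 0.19), Krt13, a keratin of hillock and squamous cells (-1.22, limma adjusted p = 0.198), and Sprr1a, a cornified envelope protein (-0.82, limma adjusted p = 0.257). With TGF-β1 replicate 3 left out 4 of the 10 passed, where 9.08% of all genes were called higher and 6.27% lower. Among the 4 were Krt6a with a change of 2.53 (limma adjusted p = 0.0135) and Krt13 with a change of -0.62 (limma adjusted p = 0.0173). With TGF-β1 replicate 1 left out the change of Krt6a was 1.1. Of 12 tested antimicrobial genes 7 were higher and 5 lower, with a median of 0.17, and 1 passed. That gene was Lcn2, lipocalin 2, which withholds iron from bacteria and rose from 13.98 ± 0.22 to 15.39 ± 0.33 (SD, n = 3, limma adjusted p = 0.0221). With single arrays left out Lcn2 passed without TGF-β1 replicate 3 (limma adjusted p = 0.0124) and did not pass without any other array (limma adjusted p of 0.0542 to 0.0977). Bpifb1, a secreted airway protein, was at least 1.41-fold higher (0.49 on the log2 scale, limma adjusted p = 0.143). With normexp background its change was 0.40, below that bound. Lyz1, a lysozyme, changed by -1.36 (limma adjusted p = 0.167), or by -0.55 with normexp background. Without control replicate 3 the change of Lyz1 was -1.90 (limma adjusted p = 0.035).

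Known targets of TGF-β1 show how the cultures answered the treatment. All 9 had fitted changes above 0, 6 of them past the threshold, with a median change of 2.10. With single arrays left out 3 to 7 passed, 3 without control replicate 1, TGF-β1 replicate 1 or TGF-β1 replicate 2. Over all genes 0.342% to 9.08% were called higher with single arrays left out. Tgfbi, a matrix protein, changed by 4.58 (limma adjusted p = 0.0025), and Ltbp2, a protein of elastic fibres that was well above background on 1 of the 3 control arrays, by 4.03 (limma adjusted p = 0.0032), or by 1.76 with normexp background. Fn1, fibronectin, changed by 2.22 (limma adjusted p = 0.0279) and Ccn2, connective tissue growth factor, by 2.10 (limma adjusted p = 0.0111). Pmepa1 and Tgif1, which restrain the pathway, changed by 1.31 (limma adjusted p = 0.0062) and 0.92 (limma adjusted p = 0.0226).

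**Figure D5:**
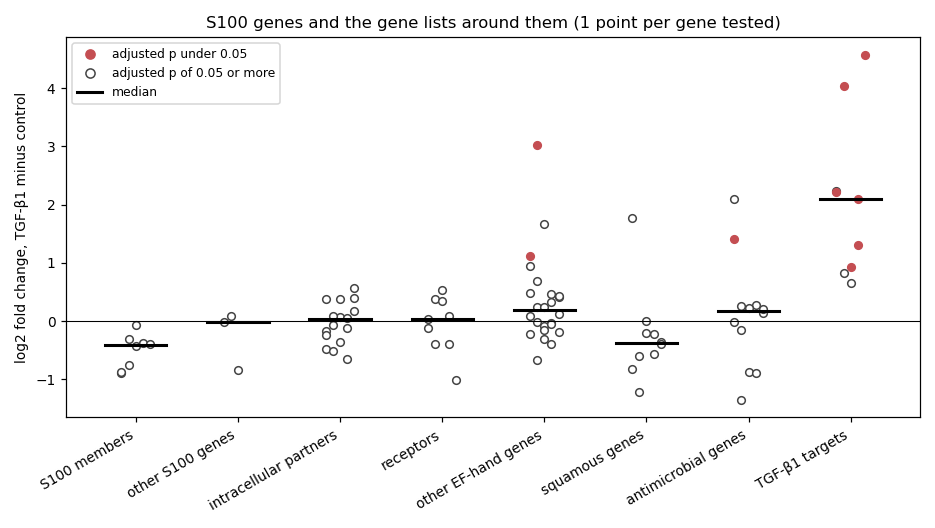
Log2 fold change (TGF-β1 minus control) of every gene tested in the S100 set and in 7 gene lists, 1 point per gene, filled where the limma adjusted p was under 0.05, with a bar at each list's median. The 8 S100 genes lie between -0.89 and -0.07 with no filled point, and all 9 target genes of TGF-β1 lie above 0.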

How the data were processed

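RNA of 3 control and 3 TGF-β1-treated 2D-MAO cultures was measured on single-colour Agilent arrays, read with Agilent Feature Extraction 11.0.1.1 per the labels. The authors deposited, for each spot, the intensity on a linear scale after background subtraction, with no normalization between arrays, the median brightness of spot and local background, and Feature Extraction's own detection mark. Control spots and spots marked as uneven or outlying were left out. Of 56605 probes 56599 remained, and 32991 received a gene symbol by matching RefSeq accessions without version to the GRCm38.p6 annotation. Log2 signals were quantile-normalized, the 32460 probes that this mark called well above background on 3 or more arrays were kept, and each gene took its brightest probe by mean signal. The groups were compared with limma 3.58.1 in R 4.3.3 with no further terms and a threshold of 0.05 on the Benjamini-Hochberg adjusted p, and single genes also by the exact two-sided permutation test. A gene that no control array detected was given as a lower bound against the dimmest signal well above background, under the reported setting only. Such a gene was tested because of its treated arrays, and its limma adjusted p came from the signals without that bound. The S100 genes and the lists around them were chosen with earlier results of these data known. Named were all S100 genes, and of each list other than the cell type markers the 3 largest changes and up to 6 genes past the threshold, except for 1 gene that is not reported here. Alternatives covered scaling, background (normexp on the median brightness with an offset of 50, since the planned mean is not in the files used here), detection, probes, test, array weights, blocks and each array left out, and 1 setting, no normalization between arrays, was chosen after seeing the data. On simulated data over 14345 genes the fit recovered 66 of 100 genes changed by 1 on the log2 scale and 94 of 100 changed by 2, with 9 unchanged genes called. Figures and sequences were handled in Python 3.11.15.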

Additional observations from a re-analysis of the deposited data

How the results depend on the processing

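The fitted changes of S100a1, S100a4, S100a10, S100a11, S100a13, S100a14 and S100a16 kept their direction under all 19 alternatives, and that of S100a6 under 16 of the 17 that could be run on it, with 0 under normexp background. The median change of the S100 genes tested ranged from -0.64 with 75th percentile scaling to -0.35 without control replicate 1, and 0 genes of the set passed the threshold in the higher direction under any alternative. The number lower at an adjusted p under 0.05, 0 as reported, was 1 with 75th percentile scaling, 2 with the methods' t-test without adjustment, 5 with array weights, 2 with the slide row as a block and 5 in slide row 1 alone, and 0 to 1 when single arrays were left out (1 without control replicate 3). The number also 2-fold lower, 0 as reported, was 2 in slide row 1 alone and 0 to 1 when single arrays were left out, again 1 without control replicate 3. Over all 14345 genes that number was 27 as reported, 234 in slide row 1 alone and 59 without control replicate 3. The cause of these shifts was not tested. Same-numbered arrays deviated together with correlations of -0.01, 0.33 and -0.05, so the numbers were not taken as pairs. With the replicate number as a block 0 S100 genes of the set passed the threshold, the median stayed at -0.41, and over all genes 86 were called higher and 18 lower, against 234 and 58 without the block. Over all genes the counts of higher and lower calls also moved to 59 and 15 without the filter, 1 and 0 with the methods' t-test after adjustment, 1305 and 1146 without that adjustment, 399 and 108 with a trended robust prior, 2408 and 2575 with array weights, 290 and 105 with the slide row as a block and 1986 and 1861 in slide row 1 alone. Leaving out TGF-β1 replicate 3 gave 1302 and 900, leaving out control replicate 3 gave 198 and 112, and leaving out any other array gave 49 to 75 and 7 to 10. With 75th percentile scaling 270 genes were called higher and 59 lower (0.411%), the median of all genes was -0.09 and 61.7% of genes lay below 0, against -0.03 and 54.2% as reported.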
